A study of Mus musculus with 7 samples.

Results

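Keratins are the proteins of the intermediate filaments of epithelial cells, and the seminal vesicle is a gland of the male reproductive tract whose lining holds tall secretory cells over a thin layer of basal cells. Every gene whose symbol is Krt followed by a number, with a letter after it in a few cases such as Krt6a, was taken from the gene tables. This gave 53 genes of the 30406 shared by all libraries. Their transcripts were followed in secretory cells, in prostate-like cells, in Trp63-positive basal cells and in the epithelium of the Run1 libraries. No keratin was used to choose a cell.

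The counts are numbers of unique molecular identifiers (UMIs), each marking 1 captured RNA molecule, from droplet single-cell RNA-seq of the seminal vesicles of 23 male wild-type mice in 7 libraries. The first library is an aging pool of 10 C57BL/6J mice on chow, with 2 mice of 3 months (Y1, Y2), 4 of 20 months (20C1, 20C2, 20R1, 20R2) and 4 of 28 months (28C1, 28C2, 28R1, 28R2), of which those with an R had received rapamycin, an inhibitor of the growth kinase mTOR. The next is a diet pool of 8 FVB/NJ mice of 3 months, 2 each on a control diet (Ctrl), a high fat diet (HF), a low protein diet (LP) and caloric restriction (CR). The other 5 libraries hold 1 FVB/NJ mouse each, namely Run1_Y at 3 months and Run1_Old at 18 months, both on the Ctrl diet, and Run2_C, Run2_HF and Run2_LP, 3 mice of 3 months given the same Ctrl, HF and LP diets. Strain, age range, diet, rapamycin and library differ together between the 2 pools and cannot be told apart. The condition of each mouse inside a pool was taken from the name of its table and from the study's list of animals.

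Of 53352 deposited cells 40342 were kept, those in which no fewer than 500 genes and 200 UMIs were found and mitochondrial genes took at most 10% of UMIs. The kept UMIs per mouse ran from 1711337 to 14753284 in the aging pool, from 974010 to 9832799 in the diet pool, from 24827069 to 36580722 in Run1 and from 35673458 to 46338707 in Run2. Of 40164 barcodes, 177 occurred in more than 1 library and 0 in more than 1 mouse of the same library.

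Secretory cells were the 9716 cells in which Svs2, Svs4, Svs5 and Svs6, genes of the main seminal vesicle secretory proteins, made up at least 30% of UMIs. Prostate-like cells were the 678 cells in which Tgm4 and Pbsn, genes of prostate secretion, made up at least 0.5%. Basal cells were 390 cells outside Run1 that held at least 1 UMI of Trp63, the transcription factor of basal epithelial cells, and none of the leukocyte gene Ptprc. They also met none of the secretory, prostate-like and fibroblast rules. The basal cells had 1246.6 counts per 1000000 UMIs (CPM, normalized as below) of 7 basal marker genes together as the median over mice, against 182.7 in secretory and 320.8 in prostate-like cells. The Svs genes made up a median of 1.68% of the UMIs of basal cells and 0.847% of those of immune cells, and the part of free RNA or of droplets with more than 1 cell in this was not tested. In Run1 no cell met the secretory or the prostate-like rule, and the epithelium was split into 1351 Trp63-positive basal cells, 472 clear-like cells with at least 3 UMIs of 4 genes of proton-pumping cells, and 7147 other epithelial cells. Epithelium of Run1 meant at least 2 UMIs of a list of epithelial genes, and more of these than of a list of non-epithelial genes. In the other epithelial cells of Run1, although the labels name the tissue as seminal vesicle, 5 genes of epididymal principal cells (Lcn8, Lcn9, Gpx5, Crisp1 and Adam7) stood at 66830 and 92415 CPM in the 2 mice, while Svs1 was at 0. For comparison, 1853 fibroblasts and 2335 immune cells served as cells that should lack keratins. Fibroblasts had at least 1% of UMIs from Col1a1, Col1a2, Col3a1 and Dcn together. Immune cells held a Ptprc UMI and no Trp63 UMI, and cells of either kind met none of the other rules.

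A keratin filament is built from pairs of 1 type I and 1 type II keratin, so that cells use the family in matched partners. Simple epithelia such as glands use KRT8 with KRT18 and KRT19, the dividing basal layer of stratified epithelia uses KRT5 with KRT14 and KRT15, and KRT6, KRT16 and KRT17 are known from hair follicles and from stressed or healing epithelium. Further members serve the barrier layers of skin and mucosa, the inner root sheath and the hair shaft.

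The 53 genes lay in 2 clusters of the mm10 genome. On chromosome 11, 27 type I genes spanned 99232761 to 100269871, and on chromosome 15, 25 type II genes and the type I gene Krt18 spanned 101347444 to 102032027. Krt8 (ENSMUSG00000049382, minus strand, 101996698 to 102004482) and its partner Krt18 (ENSMUSG00000023043, plus strand, 102028180 to 102032027) were neighbours, 23697 bases apart. Krt5 (ENSMUSG00000061527, minus strand) lay at 101707070 to 101712898 and Krt7 (ENSMUSG00000023039, plus strand) at 101411043 to 101430313 of chromosome 15. On the minus strand of chromosome 11 lay Krt14 (ENSMUSG00000045545) at 100203162 to 100207548, Krt15 (ENSMUSG00000054146) at 100131758 to 100135928, Krt17 (ENSMUSG00000035557) at 100256217 to 100261029, Krt19 (ENSMUSG00000020911) at 100140810 to 100148665 and Krt23 (ENSMUSG00000006777) at 99477974 to 99493137.

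Promoter entries of 4 keratins with different patterns in the cell groups are shown as the 100 bases before the RefSeq transcription start of assembly GRCm38.p6, 5′ to 3′ on the strand of the gene. They are Krt8 and Krt18 (the simple pair), Krt5 (basal) and Krt23 (prostate-like). Capitals mark ATAAA, searched on the strand of the gene within 45 bases before the start.
Krt8, chr15:102004343-102004442, minus strand: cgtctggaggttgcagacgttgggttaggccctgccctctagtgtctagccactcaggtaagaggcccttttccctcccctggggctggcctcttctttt
Krt18, chr15:102028116-102028215, plus strand: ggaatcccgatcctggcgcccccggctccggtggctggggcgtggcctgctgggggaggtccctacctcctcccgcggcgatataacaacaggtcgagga
Krt5, chr15:101712906-101713005, minus strand: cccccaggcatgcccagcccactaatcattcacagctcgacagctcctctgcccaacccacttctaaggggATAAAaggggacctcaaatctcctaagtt
Krt23, chr11:99493121-99493220, minus strand: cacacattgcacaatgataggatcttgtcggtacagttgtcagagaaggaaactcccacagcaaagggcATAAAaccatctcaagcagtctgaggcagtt
ATAAA began 29 bases before the start in Krt5 and 31 bases before it in Krt23, and was not among these letters in Krt8 and Krt18. Of 32851 promoters in the same table, 6.08% held ATAAA in that window. The RefSeq start of Krt5 lay 7 bases outside the 5′ end of the gene in the annotation of the files. Those of Krt23, Krt18 and Krt8 lay 17, 36 and 140 bases inside it. All letters shown for Krt8 thus lie within the annotated gene, and the bases before its annotated 5′ end were not searched. A match of letters is a description and not a site.

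Of the 53 keratins, 13 reached a mean of 20 CPM over mice in at least 1 of the 6 epithelial groups. This mean was by library size alone, without the scaling factor given below. With that factor Krt4 had a mean of 16.6 in basal sums. The 13 were 8 of type I (Krt10, Krt14, Krt15, Krt16, Krt17, Krt18, Krt19, Krt23) and 5 of type II (Krt4, Krt5, Krt7, Krt8, Krt80). These were 5 of 6 simple keratins (not Krt20), all 3 basal keratins, 2 of 4 stress keratins, 3 of 14 barrier keratins and 0 of the 7 inner root sheath and 16 hair keratins. Another 28 had UMIs but stayed at a highest mean of 9.50 CPM by library size alone, and 12 had 0 UMIs in the 6 groups. Of those, 9 had 0 UMIs in all 40342 kept cells, which allows a share of up to 0.00744% of cells with a UMI, a limit that covers counting error only.

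Levels are given from here on as normalized CPM, that is UMIs of a gene summed over the cells of a mouse and group, per 1000000 UMIs outside the 6 genes of the cell rules, with a scaling factor per sum (TMM). A UMI marks 1 molecule at its 3′ end, so that levels of different genes were not scaled by length. Sums needed at least 10 cells, which left 21 mice for secretory cells, 13 for prostate-like cells, 10 for basal cells (Y2 alone of the aging pool, 6 mice of the diet pool and the 3 of Run2) and 2 for each Run1 group. All 53 keratins together ran from 3153 to 10190 in secretory sums (median 6338), from 2439 to 5774 in prostate-like sums (median 3900) and from 5377 to 9493 in basal sums (median 8097). Fibroblast sums ran from 70.3 to 965 (median 243) and immune sums from 96.7 to 1561 (median 457). The range of every epithelial group lay above that of both other groups.

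**Figure D1:**
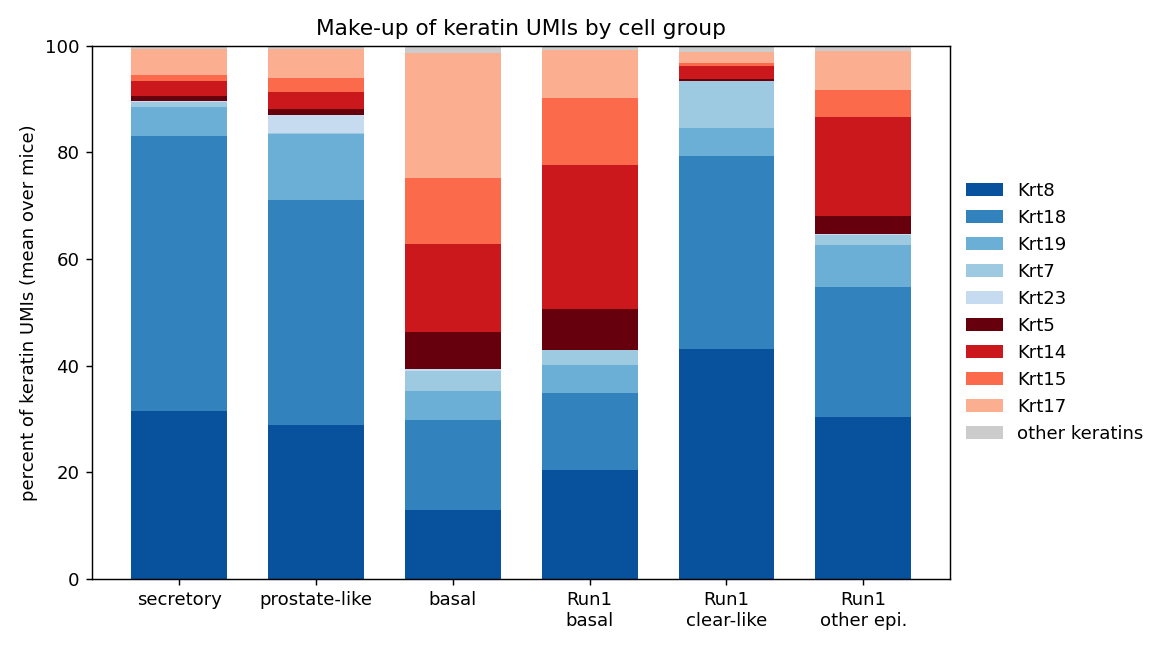
Share of each keratin among all keratin UMIs, in percent (vertical axis), as the mean over mice of each epithelial cell group (horizontal axis), with stacked colours for single keratins and grey for the rest. In secretory cells Krt18 and Krt8 had mean shares of 51.7% and 31.4%, while in basal cells Krt14, Krt15, Krt17 and Krt5 took up a large part of the bar.

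Krt8 and Krt18, the filament pair of simple epithelia, were the most abundant keratins of secretory cells. Krt8 ran from 966 to 3923 (median 2077) and Krt18 from 1447 to 5286 (median 3231) over the 21 mice. In prostate-like cells Krt8 ran from 662 to 1680 (median 1230) and Krt18 from 1273 to 2418 (median 1558). Basal cells held both at 573 to 1480 (median 947) for Krt8 and 828 to 2116 (median 1151) for Krt18. The 3 ranges overlapped for each gene, and all lay above the fibroblast sums, at 0 to 197 for Krt8 and 0 to 447 for Krt18. Krt19, a type I keratin of glandular ducts, differed least, with medians of 283 in secretory, 486 in prostate-like and 388 in basal sums.

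Krt5, Krt14 and Krt15, the keratins of basal layers, separated the basal cells. Krt5 ran from 364 to 760 over the 10 basal sums (median 517), against 3.69 to 126 (median 59.1) in secretory and 0 to 112 (median 43.7) in prostate-like sums. The values of Krt14 were 667 to 2041 (median 1384) in basal, 12.5 to 461 (median 174) in secretory and 0 to 350 (median 124) in prostate-like sums. For both genes no basal sum overlapped a secretory or prostate-like sum. Krt15 ran from 345 to 1797 (median 947) in basal, from 2.12 to 165 (median 99.7) in secretory and from 5.05 to 379 (median 99.7) in prostate-like sums, so that the highest prostate-like sum exceeded the lowest basal one.

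Krt17, the type I stress keratin, was the most abundant keratin of basal cells by its median, at 506 to 4051 (median 1968), with the highest value in Y2, whose sum held 10 cells. It ran from 20.9 to 1267 (median 276) in secretory and from 0 to 581 (median 248) in prostate-like sums, which overlapped the basal range. Krt16 stayed at 6.49 to 44.2 in basal sums (44 UMIs in all) and had a median of 2.53 in secretory sums. Krt7, a type II keratin of ducts and glands, ran from 82.6 to 442 (median 277) in basal, from 5.27 to 166 (median 54.0) in secretory and from 0 to 18.3 (median 3.43) in prostate-like sums. Here the prostate-like sums lay entirely below the basal ones and overlapped the low end of the secretory ones.

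**Figure D2:**
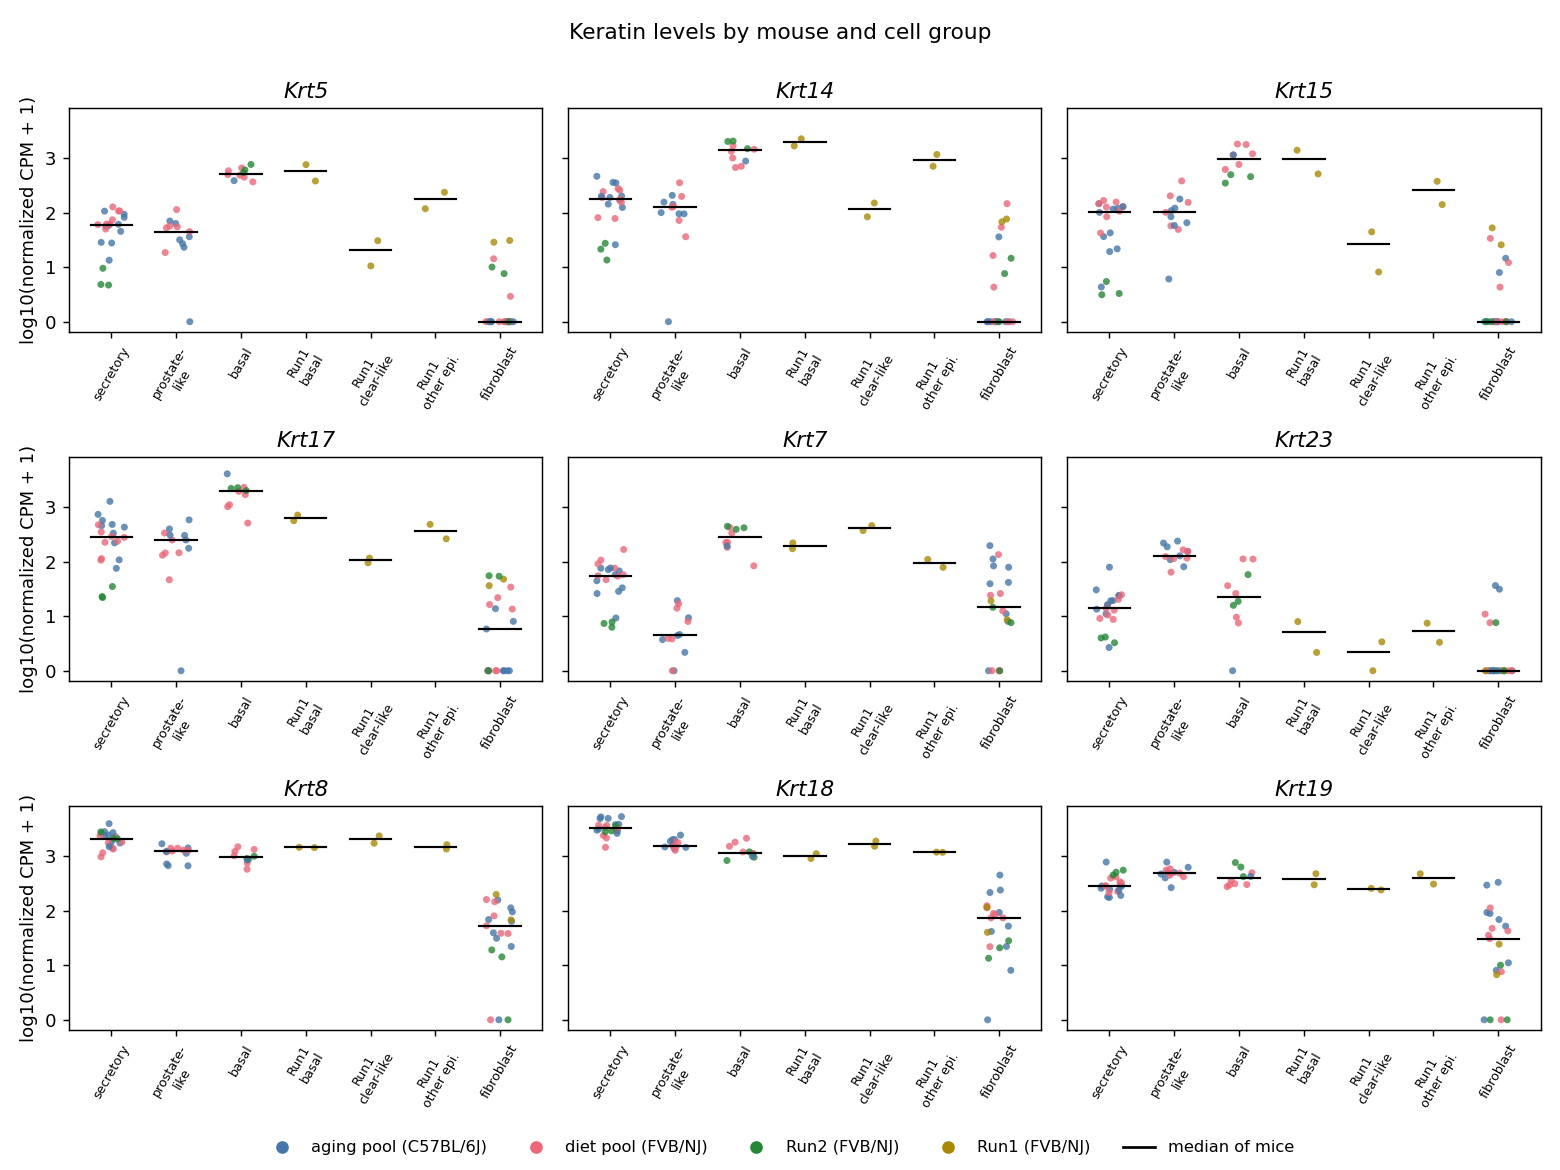
Normalized CPM on the scale log10(value + 1) (vertical axes) of the keratins named in the panels, by cell group (horizontal axes), with 1 point per mouse and group coloured by set of libraries and a black line at the median over mice. The basal points of Krt5 and Krt14 lie above all secretory and prostate-like points, and the 3 Run2 secretory points lie at the bottom of their group for Krt5, Krt14, Krt15, Krt17 and Krt7.

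The comparison of basal with secretory cells asked which keratins set the basal layer apart in this gland. It used the quasi-likelihood test of edgeR with a block per mouse, in 1 fit over 61 sums of 19 mice and 8531 genes, and a keratin was called at a Benjamini-Hochberg adjusted p under 0.05 over all genes. Of 12 keratins tested, 8 were higher in basal cells, where 28.7% of all genes were higher, and 2 were lower, where 26.4% of all genes were lower. All 3 basal keratins were higher, Krt15 by 4.41 ± 0.36 on the log2 scale (SE, adjusted p = 7.24e-15), Krt5 by 3.84 ± 0.36 (adjusted p = 4.56e-13) and Krt14 by 3.67 ± 0.45 (adjusted p = 7.61e-10). Both tested stress keratins were higher, Krt17 by 3.36 ± 0.43 and Krt16 by 3.08 ± 0.66. Among simple keratins Krt7 (2.98 ± 0.44) and Krt23 (1.97 ± 0.40) were higher, Krt8 (-0.94 ± 0.24) and Krt18 (-1.14 ± 0.25) lower, and Krt19 was at 0.39 with a 95% interval from -0.24 to 1.02. Krt4, a keratin of mucosal barrier layers, was higher by 4.01 ± 0.84, but 17 of its 36 basal UMIs came from LP1, 16 from Ctrl1, and 6 of the 10 basal sums held 0.

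This scaling matters for the lower calls. With library size alone as the scale, the median of all genes moved to 1.10 in basal against secretory and to 0.84 in prostate-like against secretory cells. Krt8 then stood at 0.15 and Krt10 at 0.82 in basal against secretory cells, both with the sign turned, so that the direction of these 2 genes depends on the scale. Krt18, the other lower call, stood at -1.14 in the main fit, near the size of this move of the median. Its lower level in basal cells should be read with the same limit. The basal and stress keratins lay above either median.

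Basal cells were also compared with prostate-like cells in the same fit. Of 12 keratins, 7 were higher in basal cells, where 23.7% of all genes were higher, and 1 was lower, where 24.5% of all genes were lower. Krt7 differed most, by 6.02 ± 0.58 (adjusted p = 1.57e-12), followed by Krt5 (4.39 ± 0.40), Krt14 (4.19 ± 0.50), Krt15 (4.14 ± 0.40), Krt17 (3.99 ± 0.48), Krt16 (3.69 ± 0.74) and Krt4 (3.51 ± 0.90). Krt23 was lower, at -1.13 ± 0.37 (adjusted p = 0.00891). The pair Krt8 and Krt18 gave -0.19 (95% interval -0.72 to 0.33) and -0.13 (-0.67 to 0.41).

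The size of the basal difference was not the same in each set of libraries. Within the diet pool, 6 of 9 keratins were higher in basal cells (26.7% of all genes) and 2 lower (24.9%), with Krt15 at 3.49 ± 0.35, Krt14 at 2.91 ± 0.34, Krt5 at 2.72 ± 0.24, Krt17 at 2.66 ± 0.28 and Krt7 at 1.60 ± 0.37. Within Run2, 5 of 8 were higher (31.6% of all genes) and 2 lower (34.3%), with Krt15 at 7.21 ± 0.29, Krt5 at 6.91 ± 0.23, Krt14 at 6.55 ± 0.18, Krt17 at 6.41 ± 0.16 and Krt7 at 6.04 ± 0.26. An interaction term over these 9 mice gave a larger basal difference in Run2 for 6 keratins of 12, where it was larger for 6.81% of all genes. The term was 3.94 ± 0.51 for Krt15, 4.29 ± 0.42 for Krt5, 3.86 ± 0.35 for Krt14, 3.95 ± 0.34 for Krt17 and 4.59 ± 0.49 for Krt7. The aging pool gave no fit of its own, since only Y2 had 10 basal cells. Its 44 basal cells of 10 mice summed together held Krt18 at 2238 CPM by library size alone, Krt8 at 1867 and Krt14 at 1693. Krt15 stood at 1305, Krt19 at 735, Krt7 at 669 and Krt5 at 488. The highest was Krt17, at 3163 (Poisson 95% interval 3004 to 3329). That interval covers counting error only, and not the spread between cells or mice.

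**Figure D3:**
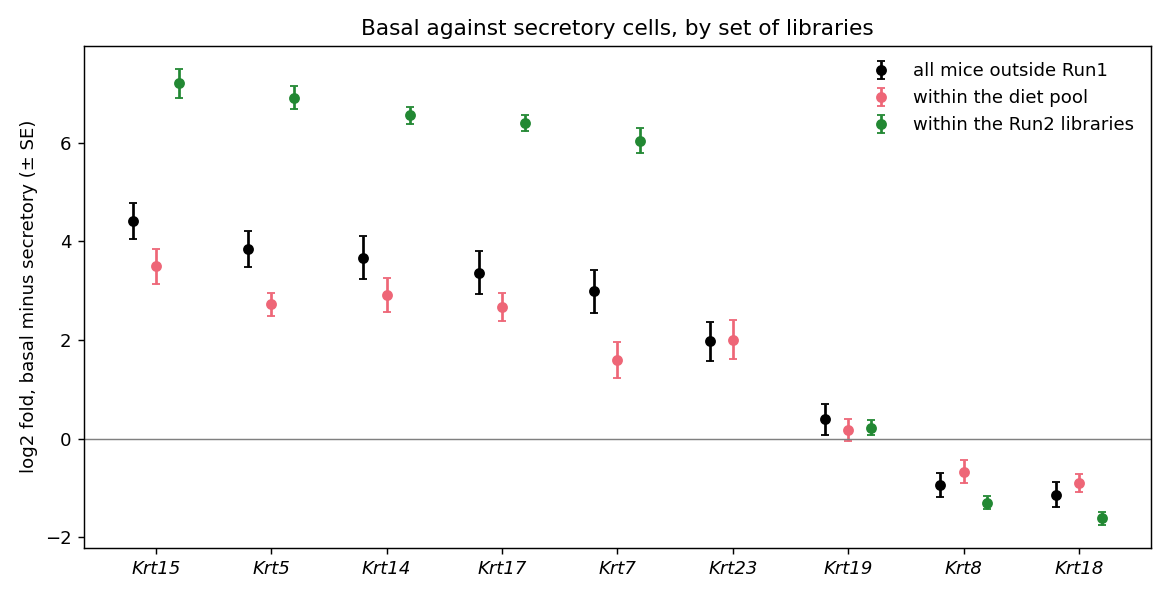
Log2 fold of basal minus secretory cells (vertical axis, points with standard errors) for 9 keratins (horizontal axis), over all mice outside Run1 in black, within the diet pool in pink and within the 3 Run2 libraries in green. Krt15, Krt5, Krt14, Krt17 and Krt7 lie between 1.60 and 3.49 in the diet pool and between 6.04 and 7.21 in Run2, while Krt8 and Krt18 lie below 0 in each.

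Between Run2 and the diet pool, Krt5, Krt14, Krt15, Krt17 and Krt7 lay further apart in secretory than in basal cells. In secretory cells Krt5 stood at 3.81, 3.69 and 8.52 in Run2_C, Run2_HF and Run2_LP, against 48.8 to 126 (median 66.7) in the 8 diet pool mice. Krt14 stood at 20.3, 12.5 and 26.3 in the same 3 mice, against 76.9 to 275 (median 181). Run2 and the diet pool did not overlap for either gene. Of 10 keratins tested between these secretory sums, 7 were lower in Run2, where 16.0% of all genes were lower, and 2 were higher, where 12.9% were higher. The lower ones were Krt15 (-5.54 ± 0.33, adjusted p = 3.90e-10), Krt5 (-4.02 ± 0.30), Krt17 (-3.58 ± 0.34), Krt7 (-3.55 ± 0.24), Krt14 (-3.49 ± 0.29), Krt23 (-2.12 ± 0.42) and Krt10 (-0.88 ± 0.25). The simple keratins Krt19 (0.60 ± 0.16) and Krt8 (0.46 ± 0.16) were higher, and Krt18 stood at 0.01 with a 95% interval from -0.36 to 0.37. In basal cells the same contrast called 2 of 9 keratins, Krt15 at -1.50 ± 0.25 and Krt19 at 1.07 ± 0.27, where 13.1% of all genes were called. This count was 1 without HF1, Run2_HF or Run2_LP and 0 with at least 2 Trp63 UMIs per cell.

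In the pools a minority of secretory cells carried the basal keratin UMIs. Of 746 secretory cells of the aging pool, 22.3% held at least 10 UMIs of Krt5, Krt14, Krt15 and Krt17 together, and these cells held 92.2% of the 8170 such UMIs. In the diet pool 19.5% of 478 cells held 82.8% of 3061 UMIs. Of 8492 secretory cells of Run2, 0.330% held at least 10, with 40.3% of 960 UMIs. The cells with at least 10 had a median of 69803 UMIs in the aging pool against 38121 for the other secretory cells, 45507 against 24697 in the diet pool and 13356 against 13120 in Run2. A Trp63 UMI was present in 30 of 166 such cells of the aging pool, 16 of 93 of the diet pool and 3 of 28 of Run2. No doublet caller was run, and the part of droplets with more than 1 cell in these values was not tested.

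Depth was set equal by thinning each cell to 1000 UMIs outside the 6 rule genes. Any of Krt5, Krt14, Krt15 and Krt17 was then found in 18.1% of secretory cells of the aging pool, 20.2% of the diet pool and 1.23% of Run2, against 52.0%, 48.1% and 2.73% before thinning. Immune cells gave 2.69%, 4.05% and 7.45% in the same sets, so that the Run2 secretory share was at or below that background and the share in both pools above it. Basal cells gave 84.1%, 88.9% and 96.4%.

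Most basal cells held simple keratins as well. After thinning, a UMI of Krt5, Krt14 or Krt17 and one of Krt8 or Krt18 were found together in 63.6% of basal cells of the aging pool, 69.1% of the diet pool and 76.3% of Run2. Shares are given by set, since 8492 of the 9716 secretory cells came from Run2. In secretory cells both kinds were found in 15.4% of the aging pool, 17.2% of the diet pool and 1.06% of Run2. The prostate-like shares were 14.5% and 10.9% in the same pools, below the basal shares there. Fibroblasts gave 0.258% to 1.27% and immune cells 1.02% to 7.45% in the same 3 sets, and the Run2 secretory share lay within the fibroblast range. Krt8 or Krt18, with or without the other kind, was found in 72.1% to 80.9% of secretory, 84.1% and 87.4% of prostate-like and 77.3% to 82.0% of basal cells. Thinning left out 45 of the 390 basal cells, all in Run2, 8 secretory and 9 prostate-like cells. Before thinning, both kinds were held by 49.6%, 44.6% and 2.60% of secretory cells in the aging pool, the diet pool and Run2, by 79.5%, 91.4% and 79.3% of basal cells, and by 34.0% and 28.8% of prostate-like cells of the pools. The median depths outside the rule genes were 20225.5, 13502 and 4825.5 UMIs in secretory, 8629, 5952.5 and 1210 in basal, and 15552 and 4341 in prostate-like cells.

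**Figure D4:**
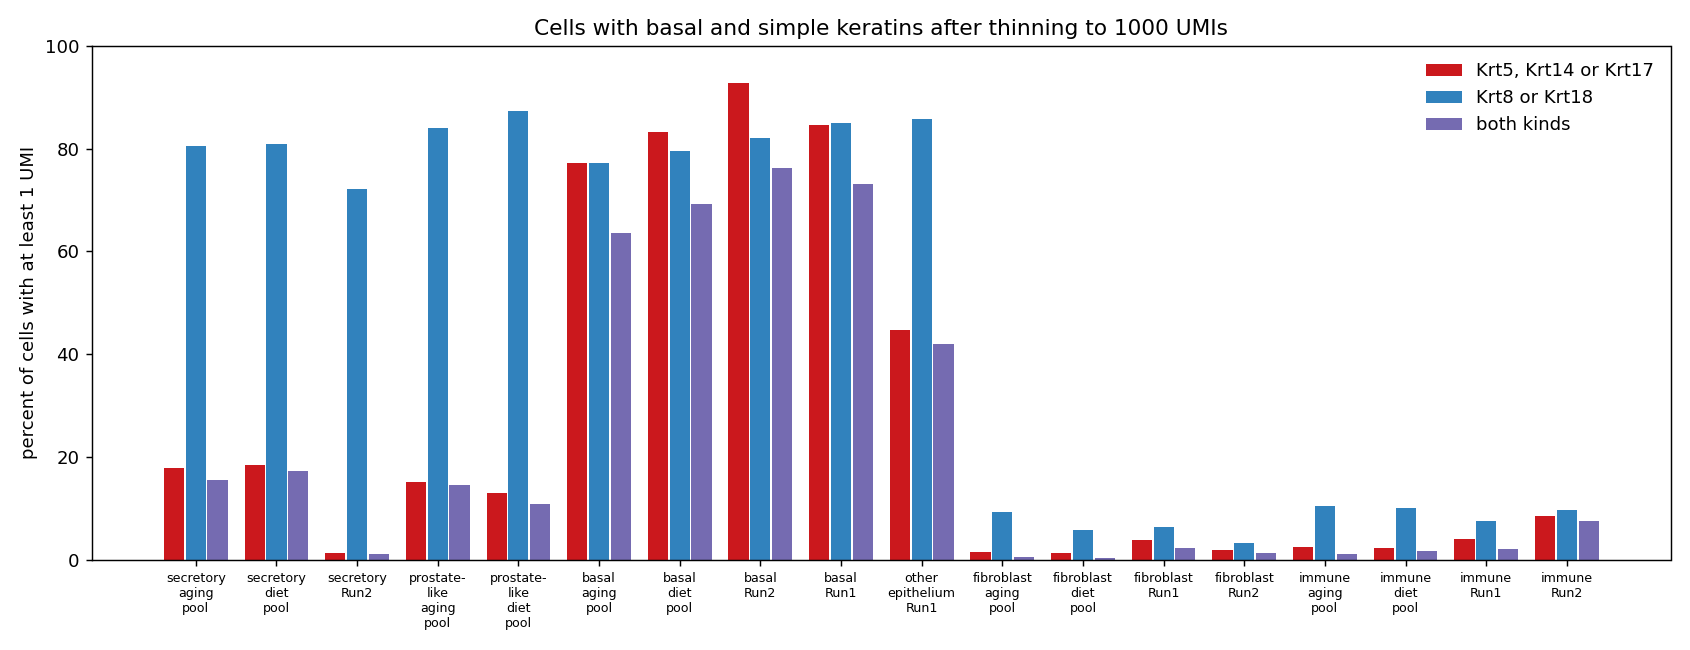
Percent of cells with at least 1 UMI (vertical axis) of Krt5, Krt14 or Krt17 (red), of Krt8 or Krt18 (blue) and of both kinds (purple), by cell group and set of libraries (horizontal axis), after each cell was thinned to 1000 UMIs. Both kinds were found together in 63.6% to 76.3% of basal cells by set and in 73.1% of Run1 basal cells, against 15.4%, 17.2% and 1.06% of secretory cells of the aging pool, the diet pool and Run2.

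Prostate-like cells differed from secretory cells mainly in 2 keratins of simple epithelia that went in opposite directions. Krt23, a type I keratin of low abundance, ran from 63.01 to 236 (median 126) over the 13 prostate-like sums and from 1.67 to 78.0 (median 12.9) over the 21 secretory sums. Of the secretory sums that of 20R2, at 78.0, was the only one to reach the prostate-like range. In the fit it was higher by 3.1 ± 0.25 on the log2 scale (adjusted p = 2.73e-15), the 1 keratin of 12 that was higher, where 26.0% of all genes were. Of the 4 that were lower, where 21.8% of all genes were lower, Krt7 stood at -3.04 ± 0.50 (adjusted p = 1.19e-06), Krt18 at -1.01 ± 0.22, Krt10 at -0.90 ± 0.23 and Krt8 at -0.75 ± 0.21. Krt8 turned to 0.061 with library size alone as the scale. On that scale the median of all genes stood at 0.84. The main values of Krt18 and Krt10 are near the size of this move, so their lower level should be read with the same limit. Krt5 (-0.55), Krt14 (-0.52), Krt15 (0.27) and Krt17 (-0.63) did not pass the test.

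These calls shifted with the set. Within the aging pool 8 of 14 keratins were lower in prostate-like cells (20.8% of all genes), among them Krt14 at -1.05 ± 0.29, Krt17 at -1.10 ± 0.27 and Krt5 at -0.92 ± 0.20, and 3 were higher (17.0% of all genes), which were Krt23 at 2.81 ± 0.27 and the barrier keratins Krt1 and Krt78. Both barrier keratins were near the floor, with 3 UMIs of Krt1 and 10 of Krt78 in all secretory sums of that pool. Within the diet pool Krt23 at 3.19 ± 0.33 and Krt19 at 0.68 ± 0.21 passed as higher. The share of all genes that were higher there is not given here, so these calls are not set against it. In the same pool 3 of 9 keratins were lower (22.0% of all genes). These were Krt7 at -3.29 ± 0.53, Krt18 at -0.83 ± 0.18 and Krt5 at -0.73 ± 0.26. An interaction term between the pools called 0 of 12 keratins (1.84% of all genes), with 3 at an unadjusted p under 0.05 by edgeR and 0 called by DESeq2. Between the pools, prostate-like cells themselves gave 0 of 8 keratins (12.5% of all genes), with 1 at an unadjusted p under 0.05 (Krt15) and 0 called by DESeq2.

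Against fibroblasts, which served as the background, 11 of 12 keratins were higher in basal cells (17.6% of all genes), 9 in secretory cells (33.2%) and 8 in prostate-like cells (33.2%), while 1 was lower in prostate-like cells (31.8%). That gene was Krt7, at -2.84 ± 0.63, since the fibroblast sums held it at 0 to 195 (median 13.5) and the prostate-like sums at 0 to 18.3. The largest differences were Krt18 in secretory cells (5.18 ± 0.24) and Krt5 in basal cells (8.21 ± 0.58). Within Run2, Krt17 (-0.81 ± 0.38) and Krt5 (-0.35 ± 0.96) were not higher in secretory cells than in fibroblasts.

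In Run1 the Trp63-positive cells held Krt14, Krt15, Krt17 and Krt5 above the other epithelium. Run1_Old and Run1_Y held Krt14 at 1662 and 2242, Krt15 at 508 and 1385, Krt5 at 377 and 755 and Krt17 at 560 and 711. The other epithelial cells of the same mice held Krt14 at 703 and 1157, Krt15 at 139 and 373, Krt5 at 116 and 234 and Krt17 at 260 and 480, below the basal cells in each mouse. Fibroblasts and immune cells of these mice held Krt14 at 36.1 to 113, so that its level in other epithelium lay above that background. Of 12 keratins tested with the mouse as a block, 5 were higher in Run1 basal than in other epithelium, where 11.9% of all genes were. These were Krt15 (1.96 ± 0.21, adjusted p = 2.38e-04), Krt5 (1.77 ± 0.21), Krt14 (1.17 ± 0.20), Krt7 (1.15 ± 0.20) and Krt17 (0.89 ± 0.21). Krt8 stood at 0.02 (95% interval -0.73 to 0.78) and Krt18 at -0.17 (-0.82 to 0.48). The 2 mice differ in age, and with 1 mouse per age no test of age was made.

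Clear-like cells, which carry genes of the proton pump, had a keratin set of their own within Run1. Krt7 stood at 369 in Run1_Old and 455 in Run1_Y, against 77.4 and 109 in other epithelium. Krt80, a type II keratin known from epithelial differentiation, stood at 22.0 and 32.5 against 3.33 and 5.35. Both were higher in clear-like cells, by 2.20 ± 0.21 and 2.70 ± 0.25 (adjusted p = 4.56e-05 and 4.53e-05), and were the 2 of 12 keratins that were higher, where 7.18% of all genes were. The 5 lower ones, where 5.52% of all genes were lower, were Krt15 (-3.46 ± 0.26), Krt16 (-3.45 ± 0.56), Krt5 (-3.20 ± 0.28), Krt14 (-2.98 ± 0.23) and Krt17 (-1.74 ± 0.23). Their Krt14, at 82.7 and 149, stands beside the 36.1 to 113 of fibroblasts and immune cells.

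**Figure D5:**
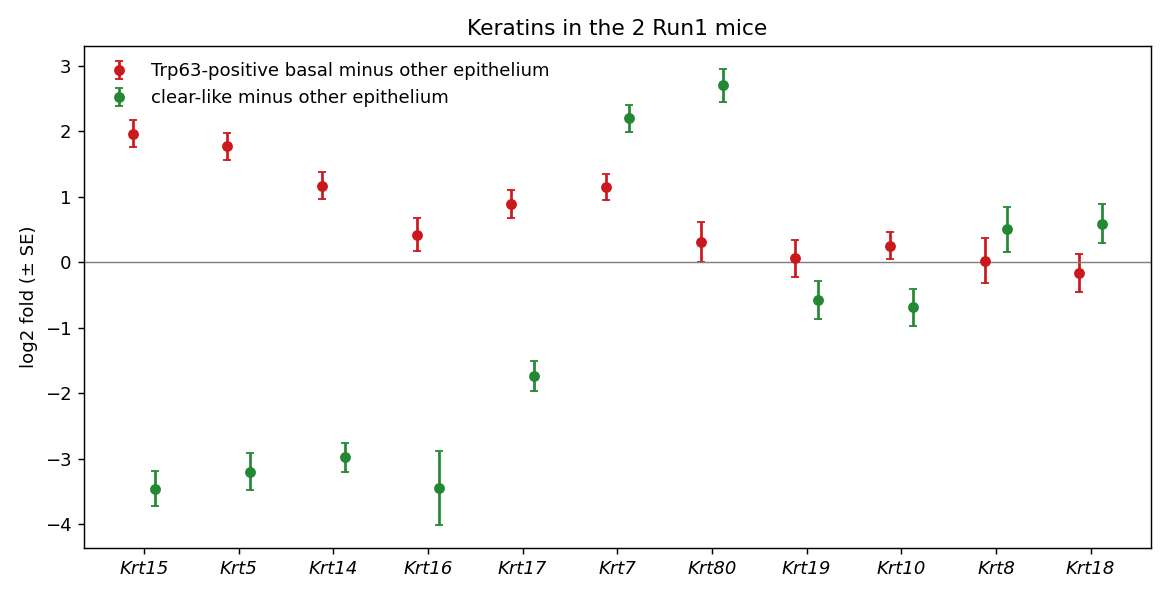
Log2 fold against other epithelium (vertical axis, points with standard errors) of the Trp63-positive basal cells in red and the clear-like cells in green, for 11 keratins (horizontal axis) in the 2 Run1 mice. Krt15, Krt5, Krt14 and Krt17 lie above 0 in basal and below 0 in clear-like cells, whereas Krt7 lies above 0 in both and Krt80 stands at 2.70 in clear-like cells.

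Basal cells of Run1 were set against those of Run2, all single-mouse libraries of FVB/NJ. Run, age, diet and tissue composition differ together between these sets and cannot be told apart. Of 8 keratins, 2 were lower in Run1, where 6.83% of all genes were, Krt17 at -1.89 ± 0.20 (adjusted p = 0.00103) and Krt7 at -1.21 ± 0.23 (adjusted p = 0.0110). The Krt17 levels of 560 and 711 lay below the 2001, 2188 and 2256 of Run2_C, Run2_HF and Run2_LP. Krt14, at -0.05 with a 95% interval from -0.56 to 0.46, and Krt5, at -0.29 (-1.04 to 0.45), did not pass. Run1_Old is 18 months of age, and 1 to 5 keratins were called when single mice were left out, so that this count rests on few animals.

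Age, drug and diet gave no called keratin with low counts filtered. In secretory cells of the aging pool 0 of 10 keratins were called for age per month (0.0597% of all genes), with 2 at an unadjusted p under 0.05 by edgeR (Krt19, Krt17), and 0 for rapamycin (0.0299% of all genes), with 1 (Krt23). The age slopes ran from -0.06 to 0.04 per month on the log2 scale. In secretory cells of the diet pool and Run2, 0 of 10 were called for HF (0% of all genes), LP (0%) and CR (1.59%), with 1, 0 and 2 at an unadjusted p under 0.05. In basal cells 0 of 9 were called for HF (0%), LP (0%) and CR (0.596%), with 0, 0 and 3. The 3 were Krt14 (-0.94, 95% interval -1.53 to -0.36), Krt15 (-0.89, -1.57 to -0.20) and Krt17 (-0.92, -1.66 to -0.18) under CR, with Krt14 at 667 and 701 in CR1 and CR2 against 1324 in Ctrl1 and 2006 in Run2_C. DESeq2 also called 0 keratins in each of these 8 comparisons. With no filter on low counts, secretory cells gave 5 for age, 2 for rapamycin and 1 for CR and basal cells 3 for CR. The shares of all genes in these unfiltered fits are not given here. With library size alone secretory cells gave 4 for CR, where 14.9% of all genes were called and the median of all genes stood at 0.55.

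Between the pools, which differ in strain, age range, diet and drug, secretory cells gave 1 lower keratin of 10 in the aging pool, where 6.87% of all genes were lower. This was Krt10, a keratin of the outer skin layers, at -0.70 ± 0.21 (adjusted p = 0.0264), with levels of 5.88 to 26.8 against 15.2 to 38.5. The call was lost with no filter on low counts and with at least 30 cells per sum. The single basal sum of the aging pool, Y2, gave 0 of 10 keratins against the 6 of the diet pool (0% of all genes), with 1 at an unadjusted p under 0.05 (Krt17, 1.73 ± 0.49) and 0 called by DESeq2. Here the lone sample was assumed to vary like the other group.

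The ratio of type II to type I keratin UMIs had different medians between groups, while its ranges overlapped between secretory, prostate-like and basal sums. Its median was 0.505 in secretory sums (0.379 to 0.701, n = 21), 0.418 in prostate-like sums (0.292 to 0.657, n = 13) and 0.331 in basal sums (0.190 to 0.456, n = 10). In Run1 it was 0.421 and 0.473 in basal cells, 0.532 and 0.588 in other epithelium and 1.09 and 1.17 in clear-like cells. Clear-like cells were thus the only group of these 6 with more type II than type I UMIs at the 10% mitochondrial limit, which at a limit of 5% no longer held (median 0.861). No test of this ratio was made.

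The partners of keratin filaments were counted from fixed lists. Of desmosome genes, whose proteins anchor keratins at cell-cell junctions, 6 of 7 tested were higher in basal than in secretory cells (28.7% of all genes), among them Dsp (desmoplakin, 2.06 ± 0.19), Pkp3 (1.72 ± 0.23), Perp (0.87 ± 0.15) and Jup (plakoglobin, 0.81 ± 0.21). Of hemidesmosome genes, whose proteins anchor keratins to the basement membrane, 8 of 9 were higher, among them Dst (3.29 ± 0.30), Itga6 (2.25 ± 0.28) and Plec (plectin, 2.21 ± 0.21). Among other intermediate filament genes 4 of 7 were higher, including the lamins Lmna (1.34 ± 0.16) and Lmnb1 (2.00 ± 0.40) and Nes (nestin, 2.78 ± 0.62), while Vim (vimentin) stood at 0.78 ± 0.46. Itga6 and Dst belong to the marker list used to check the basal cells as well. The 1 of these 9 that was not higher was Cd151, at -0.26 ± 0.20. In Run1 basal cells 6 of 9 desmosome genes were higher (11.9% of all genes) and 1, Pkp2 at -1.16 ± 0.22, lower than in other epithelium (10.8% of all genes), and 8 of 9 hemidesmosome genes were higher, with Itga6 at 1.02 ± 0.13 and Dst at 1.22 ± 0.15. In clear-like cells 5 of 9 hemidesmosome genes were lower (5.52% of all genes).

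One hair keratin had most of its UMIs outside the 6 epithelial groups. Krt83, a type II keratin of the hair shaft, held 325 UMIs in all kept cells, of which 15 lay in the 6 epithelial groups, 187 in immune cells and the rest in other cells. Chosen after its values were seen, a split of the immune cells found Krt83 in 26.9% of 234 cells with a UMI of Trdc, a gamma-delta T cell receptor gene, from 18 of 22 mice. Of 475 immune cells with Cd3g, a gene of the T cell receptor complex, but without Trdc, 5.89% held it, and of 1626 immune cells with neither, 1.41% did. The median depth of the 3 kinds was 2581, 2585 and 3319 UMIs. No test was made, since the gene was picked for this pattern.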

How the data were processed

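Counts of UMIs per gene and cell, as the authors deposited them for each mouse, were the starting point. Per the file headers they were made with Cell Ranger 6.0.1 for the pools and 3.1.0 for the single-mouse libraries, on the mm10 reference. Reads shared by near-identical keratins (Krt14, Krt16 and Krt17, or Krt6a and Krt6b) can be lost or split there. The authors' own filter on mitochondrial reads was not applied.

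Cells were assigned by the fixed UMI rules given above, 18 cells that met both the secretory and the prostate-like rule were left out, and no doublet caller was run. Counts of at least 10 cells were summed per mouse and group, and the mouse is the replicate. The 6 rule genes were left out of totals, and Trp63 was left out of calls. Sums were tested with edgeR 4.0.16 (quasi-likelihood, TMM, filterByExpr) in R 4.3.3, with Benjamini-Hochberg adjustment over all genes and a threshold of 0.05, and with DESeq2 1.42.0 as an alternative. The SE was taken as the log2 fold divided by the root of F. Comparisons between cell groups had the mouse as a block, and those of diet had the set of libraries. Age was a linear term in months beside rapamycin. Intervals of 95% used the degrees of freedom of each fit.

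Keratins with a mean of at least 20 CPM by library size alone in a group are given with values, the others by counts. Of each partner list up to 4 genes with the highest mean in basal cells are named, and a gene that this rule picks is not reported here. The genes, cell rules and lists were chosen with earlier results of these data known. The comparisons within sets, between Run2 and the diet pool, of secretory age, drug and diet, of prostate-like cells between pools, and the interaction terms were added after the data had been seen. Python 3.11.15 with numpy 2.4.6, pandas 2.3.3, scipy 1.17.1 and matplotlib 3.10.9 was used. Promoters came from RefSeq, where 7 of the 13 named keratins had an entry; those of Krt14 and Krt7 lay 1518 and 1360 bases inside the gene and are not shown.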

Additional observations from a re-analysis of the deposited data

Results flagged for a closer look

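Within sets of 4 to 10 mice, 65 groups of keratin values were searched for a mouse far from the others, and 7 were found, where chance marks about 1 group in 20. Values are normalized CPM. In secretory cells of the aging pool 20R2 stood at 78.0 for Krt23 (the other 9 mice at 1.67 to 29.4) and at 35.3 for Krt16 (0 to 9.09), and 28C1 stood at 776 for Krt19 (173 to 283). In secretory cells of the diet pool CR1 stood at 16.4 for Krt80 (0 to 6.69) and LP1 at 2.57 for Krt4 (all others at 0), which is 1 UMI, so that the chance rate above does not hold for it. LP1 also stood at 117 for Krt4 in basal cells (0 to 32.8 in the other 5), and 20R2 at 6.68 for Krt4 in prostate-like cells (0 to 1.80 in the other 6).

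The basal minus secretory difference was larger in Run2 than in the diet pool for 6 keratins by an interaction term in edgeR's quasi-likelihood test. On the log2 scale the term was 5.16 ± 0.95 for Krt16 (adjusted p = 8.26e-04), 4.59 ± 0.49 for Krt7 (1.31e-06), 4.29 ± 0.42 for Krt5 (4.67e-07), 3.95 ± 0.34 for Krt17 (2.87e-07), 3.94 ± 0.51 for Krt15 (1.54e-05) and 3.86 ± 0.35 for Krt14 (3.65e-07).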

How the results depend on the processing

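Of 3391 values under alternatives, 290 of those for counts of keratins and type ratios stayed close and 28 moved. Among single keratins 2816 kept their side and direction, 61 came to pass the threshold, 44 no longer passed it and 5 turned, while in 147 the gene passed in neither fit and the sign differed. With library size alone, Krt10 (0.82) and Krt8 (0.15) turned in basal against secretory cells and Krt8 (0.061) in prostate-like against secretory cells. Within Run2, Krt17 (-0.81) and Krt5 (-0.35) turned in secretory cells against fibroblasts. There 3 of 8 keratins were called, where 70.4% of all genes were, in place of 9 of 12, where 69.0% of all genes were. In prostate-like against secretory cells the count was 5 (47.8% of all genes). It was 13 with no filter on low counts, 10 without Run2 and 11 within the aging pool (37.8% of all genes). For basal cells of Run1 against Run2 it was 2, and 4 with no filter and 1 to 5 without 1 mouse, with 4 without Run1_Old, 5 without Run1_Y and 1 without Run2_C or Run2_LP. With no filter, 1 keratin was called for basal cells between the pools and 3 for basal CR, where the main count was 0 in each. Leaving out 1 mouse gave 0 to 1 for basal CR (1 without CR1). For basal cells of Run2 against the diet pool the count was 2, and 0 at 2 Trp63 UMIs and 1 to 3 without 1 mouse (1 without HF1, Run2_HF or Run2_LP). In comparisons whose main count was 0, no filter gave 5 for secretory age, 2 for rapamycin and 1 each for secretory CR, prostate-like cells between the pools and the interaction by pool, for which no mitochondrial limit also gave 1. Library size alone gave 4 for secretory CR, where 14.9% of all genes were called. For secretory cells between the pools 0 were called with no filter or at least 30 cells per sum, in place of 1. The type ratio moved to 0.409 in Run1 basal cells at 2 Trp63 UMIs, and in clear-like cells to 1.29 with no mitochondrial limit and 0.861 at 5%. The cause of these shifts was not tested. Leaving out the mouse as a replicate block called 8, 4, 6, 9, 8 and 9 keratins in the 6 comparisons between cell groups, against 10, 5, 8, 11, 9 and 9. Counts of this section with no share of all genes beside them are descriptions of the fits only. Replicate numbers pair no mice between groups. Basal age could not be fitted, since 1 mouse had enough cells, nor could basal cells between pools at 2 Trp63 UMIs or 30 cells, or basal diets at 30 cells. Leaving out each mouse was run for the comparisons of diet and of Run1 with Run2 only. Basal sums held 10 to 89 cells, which limits their precision. The alternatives within sets and without Run2, and the limit of 5% for the ratio, were chosen after seeing the data.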
